A study of Micropterus salmoides with 68 samples.

Results

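The genes described here move newly made secretory and membrane proteins into the endoplasmic reticulum (ER) and carry them on to the Golgi in coated vesicles. They were chosen by name alone: every gene whose symbol begins with sec, srp, ssr, spcs or tmed and a digit, with cop and one of the letters a, b, e, g or z, or with kdelr or sar1, leaving out the COP9 signalosome genes, whose names begin with cops. This rule took 55 of the 18666 genes measured in 2 organs, liver and spleen, of the largemouth bass, Micropterus salmoides. By role they were 6 genes of the signal recognition particle, 5 of the Sec61 channel and its partners, 3 of the TRAP complex, 4 of signal peptidase, 14 of the COPII coat, 9 p24 cargo receptors, 3 KDEL receptors, 6 of the COPI coat, 4 of the Sec22 family, and 1 gene, sec14l7, that the rule took by its name only. The latter belongs to a family of lipid-binding proteins related to yeast Sec14 and is neither a translocation nor a coat gene.

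In yeast and mammalian cells, from which these roles are known, the signal recognition particle catches a signal peptide as it leaves the ribosome and brings the ribosome to the Sec61 channel, TRAP sits beside the channel, and signal peptidase cuts the signal off. COPII coats bud vesicles from the ER, with p24 proteins and Sec24 choosing the cargo. COPI coats return escaped proteins and membrane from the Golgi, and KDEL receptors catch resident chaperones for that return. The liver secretes most plasma proteins and depends on this route heavily, and the spleen holds the immune cells that secrete antibodies and signalling proteins.

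RNA sequencing covered 68 libraries in 18 groups, 34 libraries in each tissue, from farmed fingerlings of no stated genotype around a transport of 4 h. Fish were taken just after netting from the pond (here before transport, 4 libraries a tissue), at the end of transport in boxes of 125 fish in 30 L of water (4), after 1 day of recovery in tanks of 600 L (4), and after 3, 4 and 5 days (3, 4 and 4 libraries of each label), when fish labelled normal and fish labelled abnormal were sampled apart. All groups went without feed during the experiment, untransported fish of the later times were not analysed here, and what made a fish normal or abnormal is not defined by the labels. Time, fasting, tank and transport therefore cannot be told apart in comparisons with fish before transport, and replicates are tissues collected from individual fish. Fish are numbered here by the replicate number of the labels, which do not say whether liver and spleen of 1 number came from the same animal.

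Values are TPM, a unit of transcript abundance that scales each gene by its length and each library to a total of about 1000000. Differences are on the log2(TPM + 1) scale, which understates the change of low genes, and a gene is called where limma's Benjamini-Hochberg adjusted p over all genes tested in the tissue (15430 in liver, 17998 in spleen) is under 0.05. All 55 genes were tested in liver and 53 in spleen, where sec16b and tmed1a did not reach 1 TPM in 3 libraries. In bulk tissue a lower level cannot be told from fewer cells that express the gene. Copies with paired names, such as kdelr2a and kdelr2b, sar1aa and sar1ab, sec22ba and sec22bb, or tmed1a and tmed1b, may share reads, so the split between the 2 of a pair is uncertain. Their sequences were not compared.

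4 libraries stood apart, and several counts are also given without them. These were the liver of fish 4 before transport and of fish 3 after 1 day, and the spleens of fish 3 and 4 after 1 day. The tissues carried their own markers: 15 hepatocyte genes summed to between 89698 and 189046 TPM in livers sampled on days 3 to 5 and to between 127 and 4933 in spleens of the same days. One member, srp9, which pairs with srp14 to slow the ribosome, was listed at 0 in 9 of 34 livers and 11 of 34 spleens and reached 33.7 and 18.2 TPM in others. It is described no further.

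Before transport the small Sec61 subunits and the TRAP genes were among the most abundant of these transcripts. In liver sec61g and sec61b stood at 613 ± 287 and 461 ± 71.4 TPM (SD, n = 4), followed by ssr2, ssr4 and ssr3 of TRAP at 387 ± 100.0, 193 ± 39.9 and 155 ± 39.7. The pore-forming subunit gene sec61a1 was at 12.0 ± 5.40. In spleen the channel genes had the same order, with sec61g at 567 ± 102, sec61b at 225 ± 10.5 and sec61a1 at 19.8 ± 3.24 TPM.

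Against spleen before transport, 6 genes were higher and 20 lower in liver, where 11% of the 18666 genes tested in both tissues were called higher and 67.8% lower (78.8% called). The median difference of the 55 genes was -0.53 and that of all genes -1.12. Without liver fish 4 before transport 31 of the 55 were called, and the share of all genes called in that fit is not given here. Median-of-ratios rescaling, which sets the typical gene equal between libraries, brought the median of all genes to -0.14. It turned the split to 28 higher and 3 lower, so the direction of the group between the tissues follows the scaling. The shares of all genes called with rescaling are not given here. The rescaled split therefore does not show whether these genes differed from all genes. Far higher in liver was sec14l7 (122 ± 86.0 against 2.32 ± 0.572 TPM, difference 5.02, SE 0.45, limma adjusted p = 1.76e-14). Also among the 6 were tmed1a (11.4 ± 2.22 against 0.0225 ± 0.045 TPM, difference 3.58) and sec16b, a scaffold gene of ER exit sites (10.6 ± 7.44 against 0.422 ± 0.14, difference 2.85). Liver fish 4 had 251 TPM of sec14l7 and 21.7 of sec16b, where the other livers had 75.5 to 83.2 and 6.57 to 7.41. Since tmed1a and sec16b did not reach 1 TPM in 3 spleens, they entered this fit through liver alone. Their calls are therefore no separate support, and no p is given for them. The largest difference the other way was that of the p24 gene tmed1b (7.30 ± 1.36 against 68.0 ± 8.54; -3.06, SE 0.38, limma adjusted p = 3.16e-10).

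**Figure D1:**
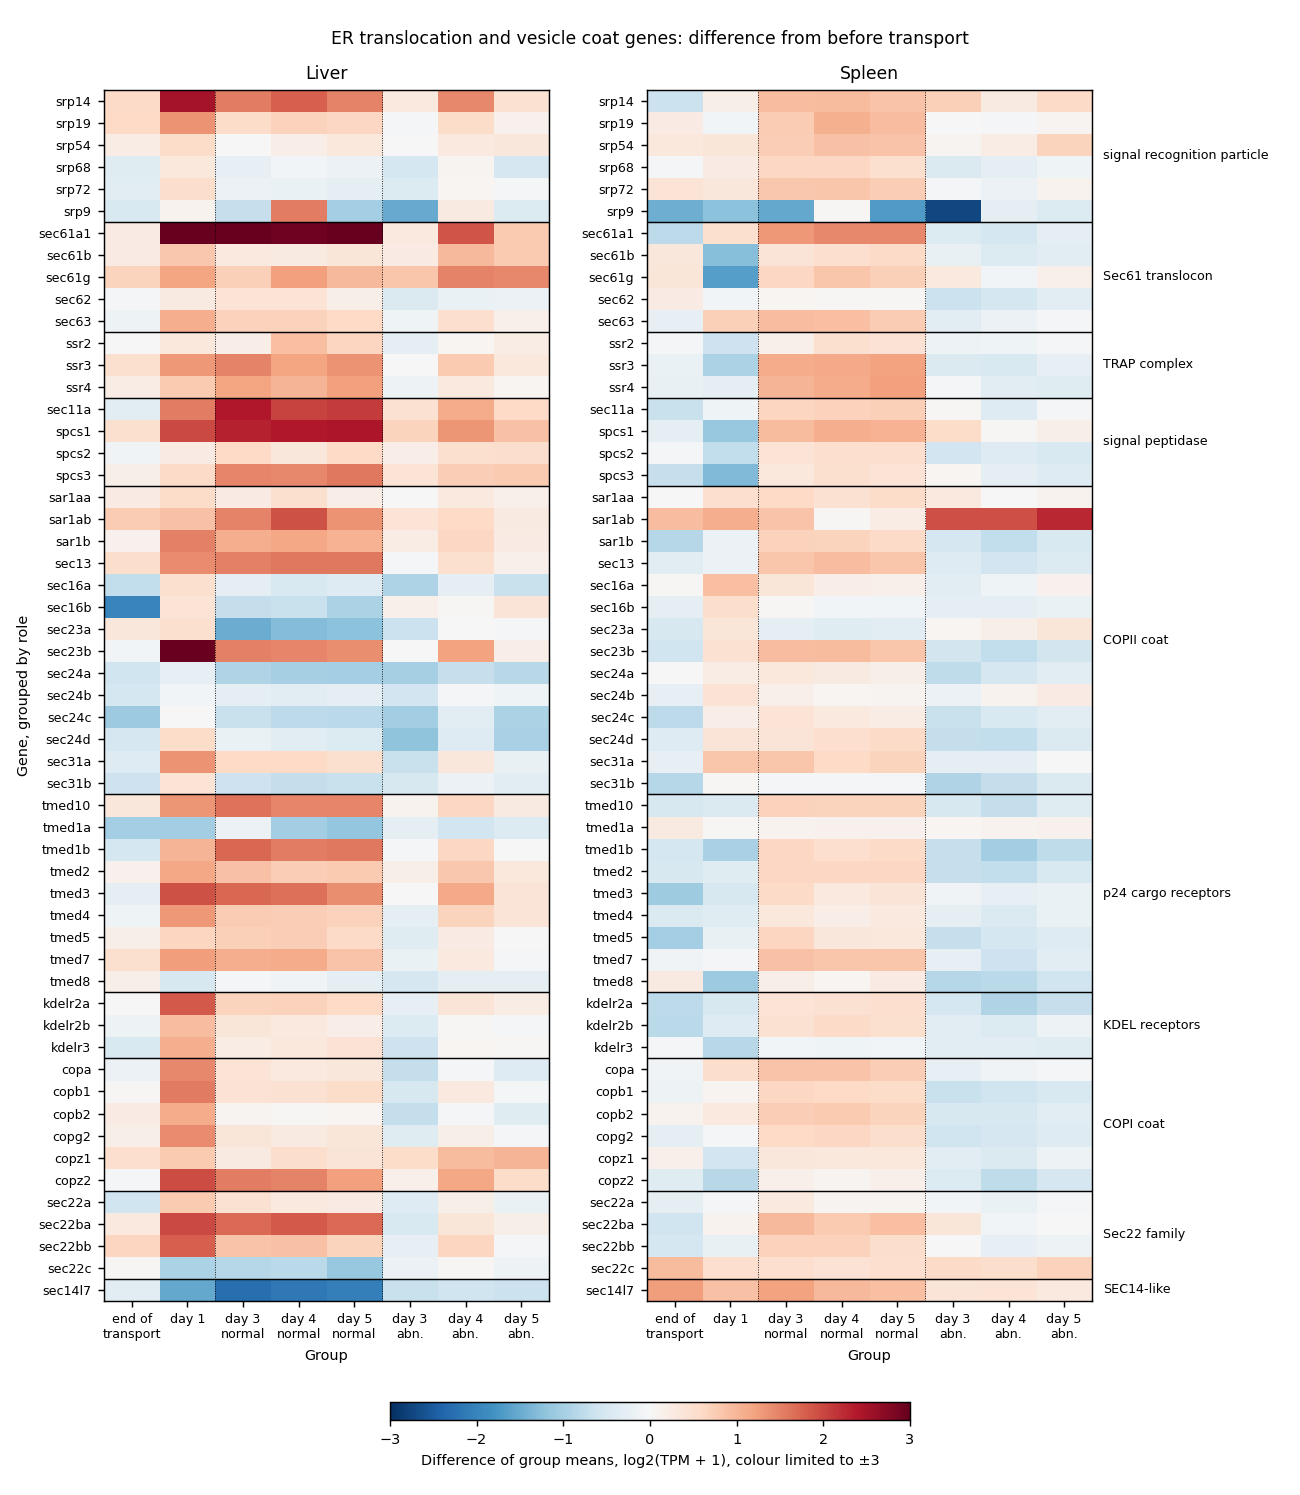
Difference of each group mean from the mean before transport, in log2(TPM + 1), for the 55 genes (rows, grouped by role) in liver and spleen (columns: end of transport, 1 day, and days 3 to 5 of fish labelled normal and abnormal); red is higher and blue lower. The liver panel is reddest after 1 day and in normal fish, where sec14l7, sec22c and tmed1a are blue, while sec23a is pale red after 1 day and blue in normal fish. As the mean of days 3 to 5, 15 of the 55 genes lie below 0 in normal livers, among them sec24a, sec16b and sec31b of COPII.

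At the end of transport the liver genes had hardly moved: 0 of 55 were higher and 2 lower, where 2.96% of all genes were called higher and 9.27% lower (12.2% called). The median difference of the 55 was 0.01, that of all genes -0.27. The larger fall was that of sec16b, with 6.57, 7.41, 6.57 and 21.7 TPM before transport and 2.44, 1.15, 1.61 and 1.35 at its end (log2 difference -1.98, SE 0.29, limma adjusted p = 5.28e-05). Every library at the end of transport was below every library before it, and fish 4 was far above the rest before transport. The p24 gene tmed1a went from 11.4 ± 2.22 to 5.21 ± 1.45 TPM (-1.01, limma adjusted p = 0.035), a call that was lost without fish 3 or 4 of the earlier group or fish 2 or 4 of the later, and with rescaling. The count was 4 without fish 1 and 5 without fish 2 before transport, and 1 without any of those whose loss ended the tmed1a call. Rescaling by the median of ratios called 4 higher and 1 lower (9.7% and 8.13% of all genes), and a fit of the 8 compared libraries alone called 1 (1.36% of all genes). The exocrine pancreas markers (6 genes) summed to 185 to 357 TPM before and 58.8 to 175 at the end of transport, and their part in the result was not tested.

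After 1 day of recovery a large part of the machinery was higher in liver. Of the 55 genes 26 rose and 3 fell, 52.7% in all, where 9.99% of all genes were called higher and 17.3% lower (27.3% called). The median difference was 0.93 for the 55 and -0.16 for all genes. The calls covered each step of the route: 2 of 6 signal recognition particle genes, 3 of 5 of the Sec61 group, 1 of 3 of TRAP, 2 of 4 of signal peptidase, 5 of 14 of COPII, 5 of 9 p24 genes, 1 of 3 KDEL receptors, 5 of 6 of COPI and 2 of 4 of the Sec22 family were higher.

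The largest rise was that of the pore gene sec61a1. Its 4 livers before transport had 10.9, 6.58, 11.1 and 19.5 TPM, those at the end of transport 20.8, 13.9, 11.9 and 9.75, and those after 1 day 64.2, 201, 455 and 70.0 (log2 difference 3.55, SE 0.68, limma adjusted p = 0.00056 against before; 3.30 against the end of transport). All 4 livers after 1 day were above all 8 earlier ones, and fish 3 was the highest. The small subunit sec61g passed less clearly (751, 650.1, 849 and 200.3 before, 1038, 1206, 1984 and 907 after 1 day; 1.19, limma adjusted p = 0.0338), with fish 4 low before transport, and sec61b did not pass (0.82, limma adjusted p = 0.0582). The ER membrane chaperone partner sec63 was called too (1.08, limma adjusted p = 0.0242), although its groups overlapped.

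In the signal recognition particle srp14, of the arm that slows the ribosome, rose from 5.16, 5.95, 11.2 and 3.87 to 19.2, 53.1, 109 and 20.1 TPM (log2 difference 2.49, SE 0.46, limma adjusted p = 0.000442), with no overlap. The assembly subunit gene srp19 rose as well (1.36, limma adjusted p = 0.00577), whereas srp54, which binds the signal peptide, had a difference of 0.54, limma adjusted p = 0.289. Among signal peptidase genes, spcs1 went from 28.9, 15.8, 38.5 and 8.45 to 54.0, 86.8, 154 and 61.0 TPM (log2 difference 1.99, SE 0.40, limma adjusted p = 0.000859) and the catalytic subunit gene sec11a from 25.9 ± 8.54 to 78.5 ± 33.2 (1.53, limma adjusted p = 0.0147). Both sets of livers were apart. In TRAP ssr3 was called (1.30, limma adjusted p = 0.0203), and ssr4 (0.78, limma adjusted p = 0.0771) and ssr2 (0.31, limma adjusted p = 0.556) were not.

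For exit from the ER the main rise was in sec23b, one of a pair of genes for the inner COPII coat: 4.05, 1.51, 3.83 and 10.5 TPM before transport and 18.4, 56.5, 116 and 19.0 after 1 day (log2 difference 2.97, SE 0.58, limma adjusted p = 0.000671). All 4 livers after 1 day were above all 4 before. Its sister gene sec23a was at 19.1, 9.74, 19.8 and 43.5 before and 23.5, 35.5, 43.8 and 17.8 after 1 day, overlapping and not called (0.48, limma adjusted p = 0.412). The GTPase gene sar1b, whose product starts the coat, rose (41.7 ± 19.3 to 127 ± 75.7 TPM; 1.51, limma adjusted p = 0.00477), as did its relative sar1ab (0.88, limma adjusted p = 0.0495) and the outer coat genes sec13 (1.43, limma adjusted p = 0.0256) and sec31a (1.34, limma adjusted p = 0.0387). None of the 4 sec24 genes, whose products read the cargo, was called (differences -0.26 for sec24a, -0.08 for sec24b, 0.01 for sec24c and 0.55 for sec24d). The p24 genes that rose were tmed3 (1.90), tmed4 (1.31), tmed10 (1.31), tmed7 (1.26) and tmed2 (1.15).

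On the return path, copz2, copb1, copa, copg2 and copz1 of the COPI coat rose by 1.97, 1.56, 1.44, 1.42 and 0.78 on the log2 scale, and copb2 (1.12, limma adjusted p = 0.0648) missed the threshold. For copz2 the livers had 11.3, 7.7, 17.9 and 13.5 TPM before and 26.3, 64.9, 129 and 28.3 after 1 day (log2 difference 1.97, SE 0.51, limma adjusted p = 0.00648), with no overlap. The KDEL receptor gene kdelr2a rose (18.3 ± 6.33 to 71.3 ± 40.0 TPM; 1.83, limma adjusted p = 0.0104). The SNARE genes sec22ba (1.99, limma adjusted p = 0.00288) and sec22bb (1.79, limma adjusted p = 0.0256), which serve fusion between ER and Golgi, rose too.

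The 3 falls in liver after 1 day were sec14l7 (77.6, 83.2, 75.5 and 251 to 99.6, 40.5, 3.34 and 98.3 TPM; -1.54, limma adjusted p = 0.0373), tmed1a (-1.04, limma adjusted p = 0.0163) and sec22c (3.41, 3.58, 5.20 and 7.33 to 2.30, 2.66, 0.65 and 2.65; -0.96, limma adjusted p = 0.00579). For sec14l7 the groups overlapped, fish 4 being highest before transport and fish 3 lowest after 1 day, and its call was lost without either of them or without fish 2 after 1 day. Against the end of transport 22 genes were higher and 1, sec22c, lower (11.6% and 6.15% of all genes, 17.7% called), and sec16b rose by 2.40 on the log2 scale (limma adjusted p = 4.6e-06), back to 10.5, 15.2, 14.0 and 11.6 TPM.

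How many genes passed in liver after 1 day rested on fish 3. Without it 8 rose and none fell against before transport, and 10 rose and 1 fell against the end of transport. Without it and fish 4 before transport 14 were called, and in a fit of the 8 compared libraries alone 2 were (1.78% of all genes), sec61a1 and sec23b, which passed under each alternative listed in the closing section. The calls of spcs1, srp14, sec22ba, sar1b, srp19 and tmed7 were lost only in the fit of compared libraries alone. For the fits without fish 3 the share of all genes called is not given here. Those counts therefore do not show whether these genes were still called more often than all genes. Rescaling gave 39 higher and 2 lower (18.6% and 17.2% of all genes, whose median moved from -0.16 to 0.02). Exocrine pancreas markers, of a tissue that can lie within fish liver, summed to 185 to 357 TPM before transport and 454 to 884 after 1 day. These sums did not overlap, and 4 of the 6 genes were called higher. Neutrophil markers (4 genes, 1 called higher) summed to 9.98 to 19.9 before and 23.3 to 79.6 after, also without overlap. The endothelial and stromal list (9 genes, 4 called lower) summed to 130 to 1628 and 71.0 to 149, with overlap. The part of these markers in the result was not tested.

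**Figure D2:**
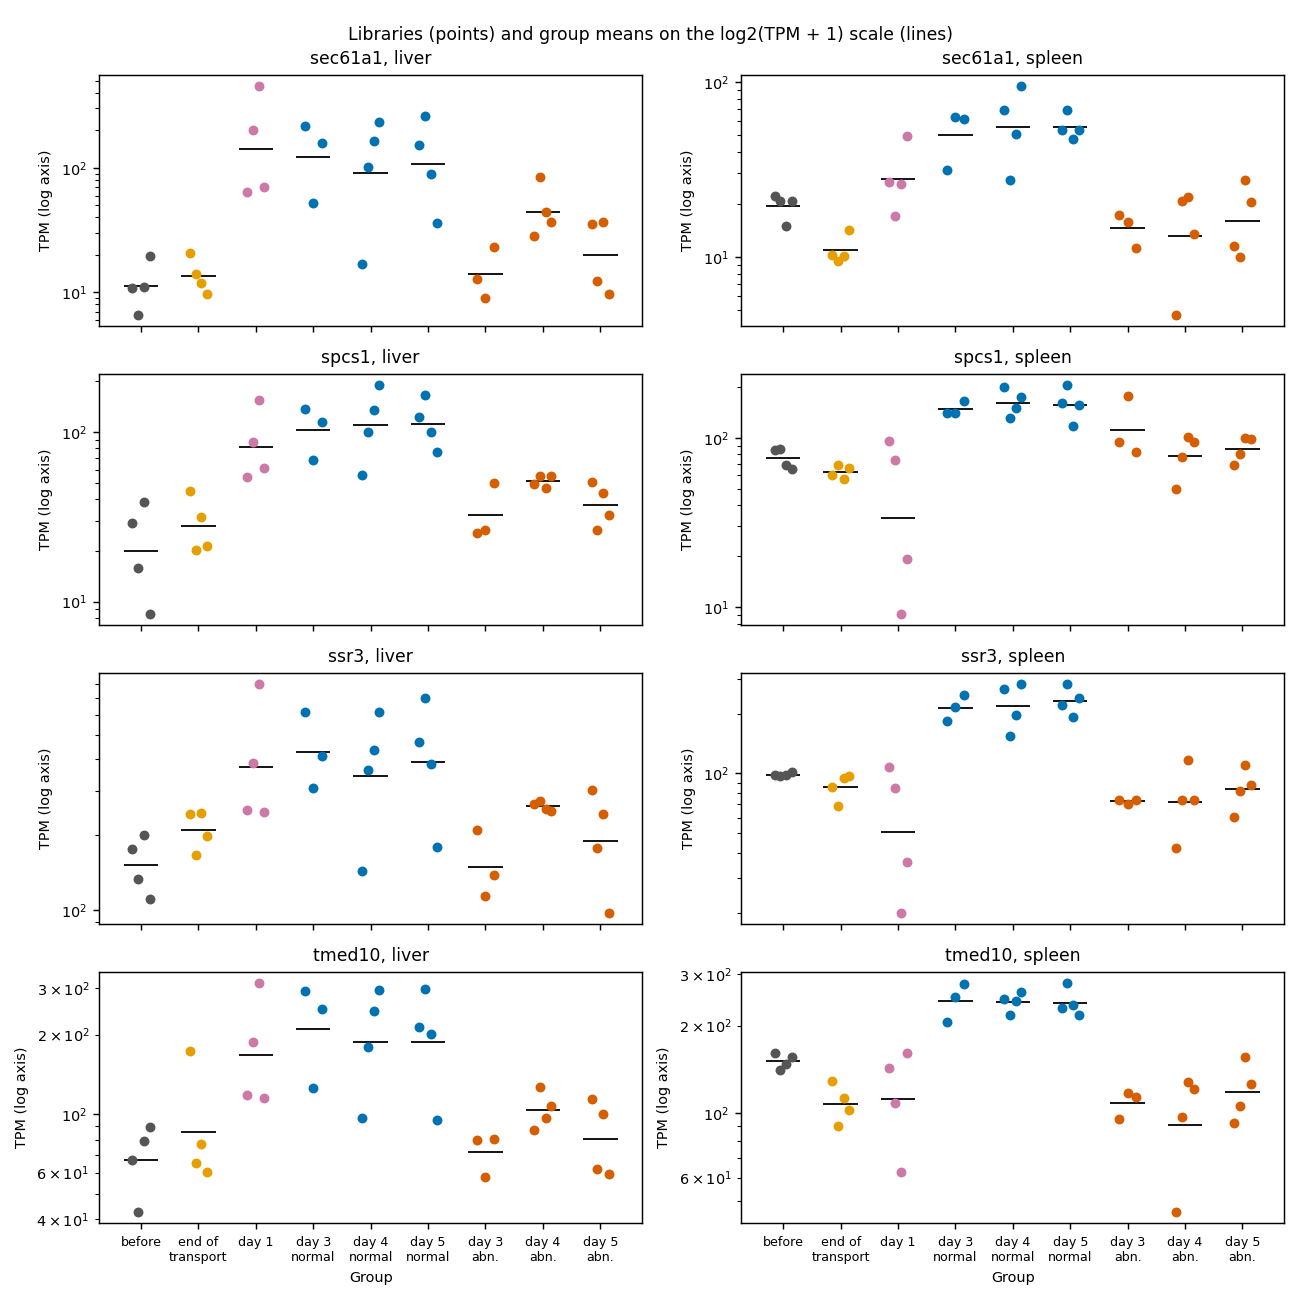
TPM (log axis) of sec61a1, spcs1, ssr3 and tmed10 in every library (points) of the 9 groups in liver (left) and spleen (right), with lines at the group means on the log2(TPM + 1) scale. In liver the points after 1 day and most of those of normal fish lie above those before transport for sec61a1. In spleen fish 3 and 4 after 1 day are lowest for spcs1 and ssr3, and normal fish are highest for ssr3. For spcs1 the spleen of abnormal fish 2 on day 3, at 177 TPM, lies within the range of normal spleens.

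Livers of fish labelled normal also had more genes higher than lower on days 3 to 5. As the mean of the 3 days, 22 of 55 genes were higher and 7 lower than before transport, where 16.9% of all genes were called higher and 34.7% lower (51.6% called). The median difference was 0.51 for the 55 and -0.24 for all genes. By day the counts were 17 higher and 4 lower on day 3, 20 and 5 on day 4, and 16 and 6 on day 5 (12.0% and 24.6%, 14.9% and 27.6%, and 12.3% and 30.7% of all genes). Rescaling gave 33 higher and 6 lower (29% and 27.7% of all genes, with their median at 0.03). Several marker lists separated the same groups without overlap. Hepatocyte genes summed to 144461 to 168866 TPM before transport and 89698 to 131888 in normal livers (10 of 15 called lower, 2 higher), endothelial and stromal genes to 130 to 1628 and 24 to 44.2 (7 of 9 lower), red cell genes to 79.8 to 133 and 16.0 to 45.2 (3 of 4 lower) and neutrophil genes to 9.98 to 19.9 and 27.6 to 79.1 (2 of 4 higher). Their part in the result was not tested.

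Of the translocation genes, 1 of 6 of the signal recognition particle, 2 of 5 of the Sec61 group, 2 of 3 of TRAP and all 4 of signal peptidase were higher. The peptidase gene spcs1 in the 11 normal livers ran from 56.0 to 189 TPM with a median of 114, against 28.9, 15.8, 38.5 and 8.45 before transport (log2 difference 2.38, SE 0.33, limma adjusted p = 9.65e-07), and did not overlap with them. The difference of sec11a was 2.18, limma adjusted p = 2.59e-05, that of spcs3 1.5, limma adjusted p = 8.69e-06 and that of spcs2 0.51, limma adjusted p = 0.0179. For sec61a1 the normal livers ran from 16.8 to 263 TPM with a median of 153 (log2 difference 3.13, SE 0.56, limma adjusted p = 3.98e-05), with the lowest, fish 1 on day 4, inside the range before transport. In TRAP ssr3 (420.3 ± 176 TPM over 11 livers) and ssr4 (444 ± 143) were higher (1.34 and 1.14), and ssr2 was not called (0.58, limma adjusted p = 0.106).

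Vesicle genes of normal livers went both ways, and no test compared the steps. Of the 9 p24 genes 7 were higher, tmed10 without overlap (from 94.8 to 299 TPM with a median of 214, against 66.9, 42.6, 79.2 and 89.4 before; log2 difference 1.52, SE 0.32, limma adjusted p = 0.000266), and tmed1a was lower (-0.80). In COPII 4 were higher, sar1ab (1.58), sec13 (1.56), sec23b (1.46) and sar1b (1.1), and 4 lower, sec23a (-1.33), sec24a (-0.97), sec16b (-0.79) and sec31b (-0.67). In COPI only copz2 passed (1.42, limma adjusted p = 0.00647), where 5 of 6 genes had passed after 1 day, and no KDEL receptor gene did. Whether these counts differed between day 1 and days 3 to 5 was not tested.

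The largest fall in normal livers was that of sec14l7, which ran from 17.3 to 37.9 TPM with a median of 20.7 in the 11 normal livers (log2 difference -2.15, SE 0.45, limma adjusted p = 0.000272), below all 4 livers before transport. The other non-overlapping fall was sec22c (from 1.34 to 2.85 TPM with a median of 2.21; log2 difference -0.94, SE 0.20, limma adjusted p = 0.000351). The calls of sec31b, sec61g and sec16b were lost without the 2 livers that stood apart, and that of tmed1a with rescaling.

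In livers of fish labelled abnormal 3 of the 55 genes differed from before transport. As the mean of days 3 to 5, 2 genes were higher and 1 lower (2.62% and 6.66% of all genes, 9.28% called; medians 0.06 and -0.15), namely sec61g (1.25, limma adjusted p = 0.0223), copz1 (0.84, limma adjusted p = 0.0086) and, lower, sec24a (-0.84, limma adjusted p = 0.0323). Without fish 4 before transport limma called 0 genes, with 6 at an unadjusted p under 0.05, and without fish 1 before transport it called 5. Rescaling called 7, 6 of them higher. The shares of all genes called in these alternatives are not given here, so the counts do not show whether these genes were called more often than all genes. A p that misses the threshold does not show that these livers equalled those before transport. The summed TPM of the 55 genes was above the highest liver before transport, 3225, in 8 of the 11 abnormal livers, among them all 4 of day 4 (4286 to 5146). This sum is weighted to the most abundant genes and does not show a rise of the group, whose median difference was 0.06. In it sec61g averaged 613 TPM before transport and 1370 in abnormal livers, and sec61b 461 and 771. Exocrine pancreas markers summed to 185 to 357 TPM before and 407 to 3997 in abnormal livers (4 of 6 called higher), without overlap, and their part was not tested.

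Set against each other, abnormal livers were lower than normal livers in 22 of 55 genes and higher in 5, where 21.3% of all genes were called lower and 29.1% higher (50.4% called). The median difference was -0.49 for the 55 and 0.09 for all genes. Rescaling gave 35 lower and 4 higher (30% and 29.6% of all genes). The difference was negative on all 3 days for 35 genes and positive on all 3 for 8, and for all genes these shares were 30.8% and 41.0%. By day 12, 4 and 11 genes were called lower and 0, 3 and 4 higher on days 3, 4 and 5 (10.1%, 8.42% and 10.7% of all genes lower, 7.65%, 17.7% and 18.1% higher). A moderated F test of whether the difference changed with the day called 0 of 55 genes (0 also at an unadjusted p under 0.05) and 0 of all genes (290 at an unadjusted p under 0.05).

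Lower in abnormal livers were all 3 TRAP genes, 3 of 4 signal peptidase genes, 2 of 5 of the Sec61 group, 5 of 9 p24 genes and 5 of 14 of COPII. The pore gene sec61a1 ran from 9.0 to 84.3 TPM with a median of 28.1 in abnormal livers (log2 difference -2.14, SE 0.41, limma adjusted p = 8e-05), with overlap from the low normal livers. The signal peptidase gene spcs1 ran from 25.2 to 55.1 TPM with a median of 46.6, below every normal liver (log2 difference -1.42, SE 0.24, limma adjusted p = 1.54e-05). Large differences also held for sec22ba (1.68 ± 1.40 against 7.17 ± 3.06 TPM; -1.72, limma adjusted p = 9.75e-06), sec11a (-1.46), tmed1b (-1.41) and sec13 (-1.37).

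The 5 genes higher in abnormal livers were sec14l7, sec23a, sec16b, sec22c and copz1. For sec14l7 abnormal livers ran from 54.6 to 75.9 TPM with a median of 69.5, all above every normal liver (log2 difference 1.51, SE 0.33, limma adjusted p = 0.000416). For sec23a they ran from 9.07 to 42.9 TPM with a median of 16.5 and normal livers from 3.16 to 16.3 TPM with a median of 7.87 (log2 difference 1.1, SE 0.25, limma adjusted p = 0.000642). The copz1 call was lost with rescaling, and none of the other 26 was. The calls of ssr2, copa, copz2 and sec31a were each lost without 1 of several single libraries. The abundant small subunits sec61b (0.35, limma adjusted p = 0.141) and sec61g (0.28, limma adjusted p = 0.381) were not called.

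Other cell markers moved with the labels in liver. The 15 hepatocyte genes summed to 89698 to 131888 TPM in normal and 135594 to 189046 in abnormal livers. The 9 endothelial and stromal genes summed to 24 to 44.2 and 88.8 to 197, the 4 B and plasma cell genes to 0.59 to 1.70 and 2.21 to 5.14, and the 6 exocrine pancreas genes to 43.5 to 937 and 407 to 3997. These lists were higher where most members were lower, the first 3 without overlap between the labels. Neutrophil (27.6 to 79.1 and 5.39 to 46.4) and macrophage genes (42.1 to 115 and 13.7 to 82.1) were higher in normal livers with overlap. The part of these in the result was not tested.

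**Figure D3:**
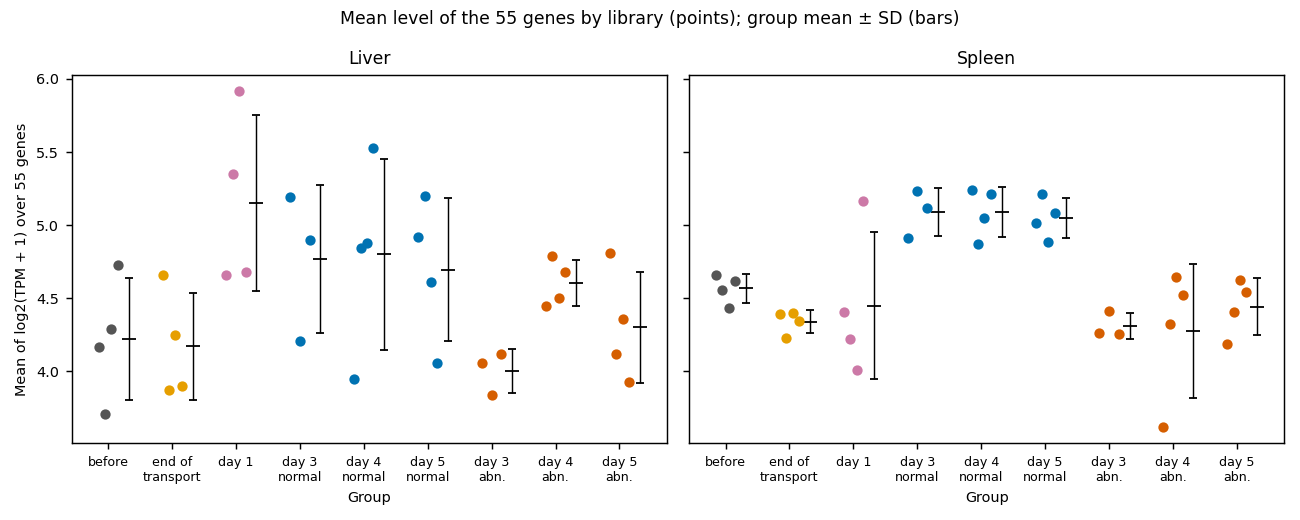
Mean of log2(TPM + 1) over the 55 genes in each library (points, coloured by group) of liver and spleen, with the group mean and SD beside them. Normal livers span 3.95 to 5.53 and abnormal livers 3.84 to 4.81, while normal spleens, 4.87 to 5.24, lie wholly above abnormal spleens, 3.62 to 4.65. The same mean over all 18666 genes, not drawn, also parts these spleens, at 3.30 to 3.55 in normal and 2.18 to 3.20 in abnormal fish. The gap in spleen is therefore not particular to the 55 genes.

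Normal livers varied widely among themselves, and the genes moved together within them. The summed TPM of the 55 genes ran from 2450 to 9102 in the 11 normal livers and from 2517 to 5753 in the 11 abnormal ones, against 2417 to 3225 before transport. Across the 11 normal livers, taken as deviations from the day means, 48 of the 54 other genes had Pearson r over 0.5 with sec61a1 (33.3% of all genes did), 3 had r under -0.5, and the median r was 0.94 (0.24 for all genes). Across the 11 abnormal livers 34 had r over 0.5 (19.9% of all genes), with a median of 0.69. The ER chaperone gene hspa5, no member, had r of 0.95 and 0.92 with sec61a1 in these livers. These values describe libraries that share their own scaling, and no test was made.

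In spleen few of the genes were called at the end of transport. Of 53 genes 3 were higher and 4 lower, where 5.23% of all genes were called higher and 6.98% lower (12.2% called), and the median was -0.24 against -0.10 for all genes. The falls were tmed3 (17.6, 20.6, 18.3 and 19.2 to 8.05, 8.87, 7.38 and 9.59 TPM; log2 difference -1.08, SE 0.32, limma adjusted p = 0.0231), tmed5 (-1.02, limma adjusted p = 0.0083), sar1b (-0.86, limma adjusted p = 0.0389) and the KDEL receptor gene kdelr2b (-0.81, limma adjusted p = 0.0242). The rises were sec14l7 (3.16, 2.19, 1.94 and 1.98 to 7.17, 6.64, 7.11 and 6.66; log2 difference 1.26, SE 0.30, limma adjusted p = 0.0059), sec22c (6.17, 5.92, 5.27 and 7.25 to 13.3, 12.4, 12.8 and 12.8; log2 difference 0.96, SE 0.26, limma adjusted p = 0.0131) and sar1ab (0.94, limma adjusted p = 0.0476). The groups of these 7 genes did not overlap, nor did those of 22 others (29 of 53 in all, where the groups did not overlap for 34.9% of all genes). The calls of tmed5, sec14l7 and sec22c held under each alternative, and those of sar1b and sar1ab were lost whichever of the 8 libraries was left out.

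The count in spleen at the end of transport moved with the groups in the fit, the scaling and the libraries kept. A fit of the 8 compared libraries alone called 5 higher and 21 lower (12.7% and 22.7% of all genes), 26 in all, and rescaling gave 5 higher and 8 lower (12.1% and 14.1% of all genes). It was 3 without fish 2 before transport or fish 1 at the end of transport, and 4 without fish 1 or 4 of the earlier group or fish 2 or 3 of the later. Hepatocyte markers summed to 105 to 252 TPM before and 754 to 5427 at the end of transport (13 of 14 tested called higher), and sec14l7 is a gene far more abundant in liver. In spleens of fish 1 to 4 at the end of transport the hepatocyte sums were 1652, 5095, 754 and 5427 TPM. The same spleens had 7.17, 6.64, 7.11 and 6.66 TPM of sec14l7. Neutrophil markers summed to 69.8 to 122 and 336 to 735 (2 of 4 higher), and B and plasma cell markers to 102 to 135 and 63.0 to 76.8 (1 of 4 lower), all without overlap. The part of these markers in the result was not tested.

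After 1 day 2 genes were higher in spleen than before transport, sec14l7 and sar1ab, and 9 lower (4.17% and 15.9% of all genes, 20.1% called; medians -0.08 and -0.23). The falls were sec61b, spcs2, spcs3, ssr2, ssr3, tmed1b, tmed8, copz1 and, the largest, sec61g (604, 631, 616 and 415 before, 452, 434, 51.9 and 95.2 after 1 day; log2 difference -1.65, SE 0.41, limma adjusted p = 0.00564). For sec61b the spleens had 241, 219, 218 and 223 TPM before and 196, 163, 30.8 and 71.5 after 1 day (-1.28, limma adjusted p = 0.0109). Fish 3 and 4 were far below fish 1 and 2 for both genes. Without these 2 spleens 1 gene was higher and 1 lower, sar1ab and tmed8. For tmed8 all 4 spleens after 1 day were low (61.2, 51.1, 49.9 and 56.8 before, 28.4, 30.2, 11.9 and 37.1 after; log2 difference -1.1, SE 0.28, limma adjusted p = 0.00582).

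Rescaling turned the split in spleen after 1 day to 14 higher and 6 lower (16.3% and 18% of all genes, with the median of all genes moved from -0.23 to -0.05), and a fit of the 8 compared libraries in limma called 0 (5 at an unadjusted p under 0.05). The count was 6, 7, 6 and 5 without fish 1, 2, 3 and 4 before transport, and 5 without fish 3 after 1 day. Against the end of transport 10 were higher and 6 lower (12.1% and 20.6% of all genes, 32.7% called), and 2 and 6 without fish 3 and 4 after 1 day. With only the compared groups in that fit 1 was called. The shares of all genes called in these alternatives are not given here. The highest rise, sec61a1, went from 10.2, 9.54, 10.1 and 14.3 to 26.8, 17.2, 26.0 and 49.3 TPM (log2 difference 1.27, SE 0.39, limma adjusted p = 0.0117) without overlap, a call that was lost without those 2 spleens. The 10 most abundant genes of a library took 13.8% to 22.9% of its TPM before transport and 26.8% to 56.2% after 1 day, and the 4 red cell markers summed to 297 to 540 and 1085 to 5543 TPM. Neutrophil markers summed to 69.8 to 122 before and 677 to 1686 after 1 day (3 of 4 called higher) and macrophage markers to 1482 to 2688 and 236 to 840 (1 of 2 lower), without overlap. Their part in these results was not tested.

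In normal fish on days 3 to 5 part of the spleen genes rose and none fell. As the mean of the 3 days 25 of 53 were called higher than before transport, 0 lower and 28 neither, where 21.5% of all genes were called higher and 10.6% lower (32.1% called; medians 0.57 and 0.20). Rescaling gave 24 higher and 1 lower (20% and 20.6% of all genes). By day 10, 15 and 10 were higher and none lower (13.8%, 13.9% and 13.1% of all genes called higher). Members called were 5 of 6 signal recognition particle genes, 4 of 6 of COPI, 4 of 13 of COPII, 3 of 8 p24 genes, 2 of 4 of signal peptidase, 2 of 3 of TRAP, 2 of 5 of the Sec61 group, 2 of 4 of Sec22 and sec14l7.

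Again sec61a1 rose most, running from 27.6 to 94.7 TPM with a median of 53.0 in the 11 normal spleens against 22.4, 20.8, 15.1 and 20.9 before transport (log2 difference 1.40, SE 0.32, limma adjusted p = 0.00123), with no overlap. In TRAP ssr3 (from 155 to 282 TPM with a median of 220.0, against 98.7, 97.3, 97.8 and 102; log2 difference 1.15, SE 0.28, limma adjusted p = 0.00223) and ssr4 (1.13, limma adjusted p = 0.000131) were higher, each apart from the group before transport. The signal recognition particle genes srp19 (0.91), srp14 (0.91), srp54 (0.82), srp72 (0.80) and srp68 (0.58) rose. So did copa (0.81), copb2 (0.73), copb1 (0.59) and copg2 (0.58), of the large COPI subunits. The calls of copb1 and srp68 were lost with either smaller pseudocount. The count fell to 15 without fish 2 and to 11 without fish 3 before transport, and was 39, all higher, with only the compared groups in the fit (36.0% of all genes higher). Marker lists that separated these groups without overlap were the neutrophil genes (69.8 to 122 TPM before, 604 to 1825 in normal fish, 4 of 4 called higher), the thrombocyte genes (425 to 647 and 48.8 to 222, 4 of 4 tested lower), the B and plasma cell genes (102 to 135 and 33.1 to 96.4, 3 of 4 lower), the endothelial and stromal genes (1008 to 1516 and 227 to 340.1, 4 of 9 lower and 3 higher) and the hepatocyte genes (105 to 252 and 314 to 1773, 1 of 14 higher). Their part in the result was not tested.

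Abnormal spleens differed from those before transport in 8 genes, 3 higher and 5 lower (3.41% and 25.2% of all genes, 28.6% called; medians -0.30 and -0.35). The GTPase gene sar1ab stood out: abnormal spleens ran from 9.49 to 35.3 TPM with a median of 15.1, against 2.70, 3.73, 4.04 and 2.80 before transport (log2 difference 2.05, SE 0.26, limma adjusted p = 2.36e-06), with no overlap. The other rises were sec22c (0.60) and srp14 (0.52), and the falls were tmed1b (-0.83), tmed8 (-0.76), kdelr2a (-0.72), sec31b (-0.68) and tmed2 (-0.63). Rescaling turned the split to 9 higher and 1 lower (14.5% and 18.8% of all genes, with their median moved from -0.35 to 0.00). The count was 1, 4, 3 and 2 without fish 1, 2, 3 and 4 before transport, 4 without fish 2 on day 3, 14 without fish 3 on day 4 and 5 without fish 1 on day 5. Red cell markers summed to 297 to 540 TPM before and 582 to 1831 in abnormal spleens (3 of 4 called higher) and endothelial and stromal markers to 1008 to 1516 and 135 to 645 (9 of 9 lower), without overlap, and their part was not tested.

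Between the labels most of the spleen genes differed: 45 of 53 genes were lower in abnormal fish and 2 higher, where 54.2% of all genes were called lower and 7.75% higher (61.9% called). The median was -0.80 for the 53 and -0.51 for all genes. By day 27, 35 and 24 genes were lower on days 3, 4 and 5 and 1, 1 and 2 higher (31.4%, 37.4% and 26.1% of all genes lower). The difference was negative on all 3 days for 48 of 53 genes and positive for 3, with 67.0% and 11.9% of all genes. The F test over the days called 0 of 53 genes (0 also at an unadjusted p under 0.05) and 3 of all genes (0.0167% called).

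The count and the direction of some genes followed the scaling. Rescaling left 21 lower and 6 higher (28.4% and 27.7% of all genes), moved the median of all genes to 0.01 and that of the 53 to -0.18, and gave a difference above 0 for 10 genes called lower before it: copz1, srp54, sec62, spcs3, sec61g, sar1aa, ssr2, tmed4, srp14 and tmed3. The 10 most abundant genes took 20.8% to 62.8% of the TPM of abnormal spleens and 7.64% to 12.5% of normal ones. Leaving out any 1 library gave 44 to 47 calls. Red cell markers (4 genes) summed to 582 to 1831 TPM in abnormal and 48.4 to 480 in normal spleens, thrombocyte markers (5) to 508 to 1321 and 48.8 to 222, B and plasma cell markers (4) to 123 to 343 and 33.1 to 96.4, and macrophage markers (2) to 339 to 1515 and 1729 to 3055. None of these 4 ranges overlapped between the labels. Neutrophil markers, at 96.7 to 856 in abnormal and 604 to 1825 in normal spleens, overlapped, with 4 of 4 called lower. Their part in the result was not tested.

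Genes that passed both with and without rescaling came from each step, srp68 (-0.85) and spcs2 (-0.95) among them. The pore gene sec61a1 ran from 4.66 to 27.6 TPM with a median of 15.8 in abnormal spleens, the highest of them just above the lowest normal spleen (log2 difference -1.80, SE 0.24, limma adjusted p = 1.73e-07). The TRAP gene ssr3 ran from 42.0 to 117 TPM with a median of 73.7, wholly below normal spleens (log2 difference -1.53, SE 0.21, limma adjusted p = 2.98e-07), and sec23b ran from 2.37 to 9.91 TPM with a median of 7.13 against from 13.3 to 29.6 TPM with a median of 17.9 (log2 difference -1.51, SE 0.21, limma adjusted p = 3.88e-07), also apart. Others were sec13 (-1.32), tmed1b (-1.40), tmed2 (-1.25), tmed7 (-1.25), kdelr2a (-1.17), copb1 (-1.16) and copb2 (-1.16). Higher in abnormal spleens were sar1ab (log2 difference 1.67, SE 0.19, limma adjusted p = 1.71e-08) and sec23a (log2 difference 0.52, SE 0.17, limma adjusted p = 0.00727).

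**Figure D4:**
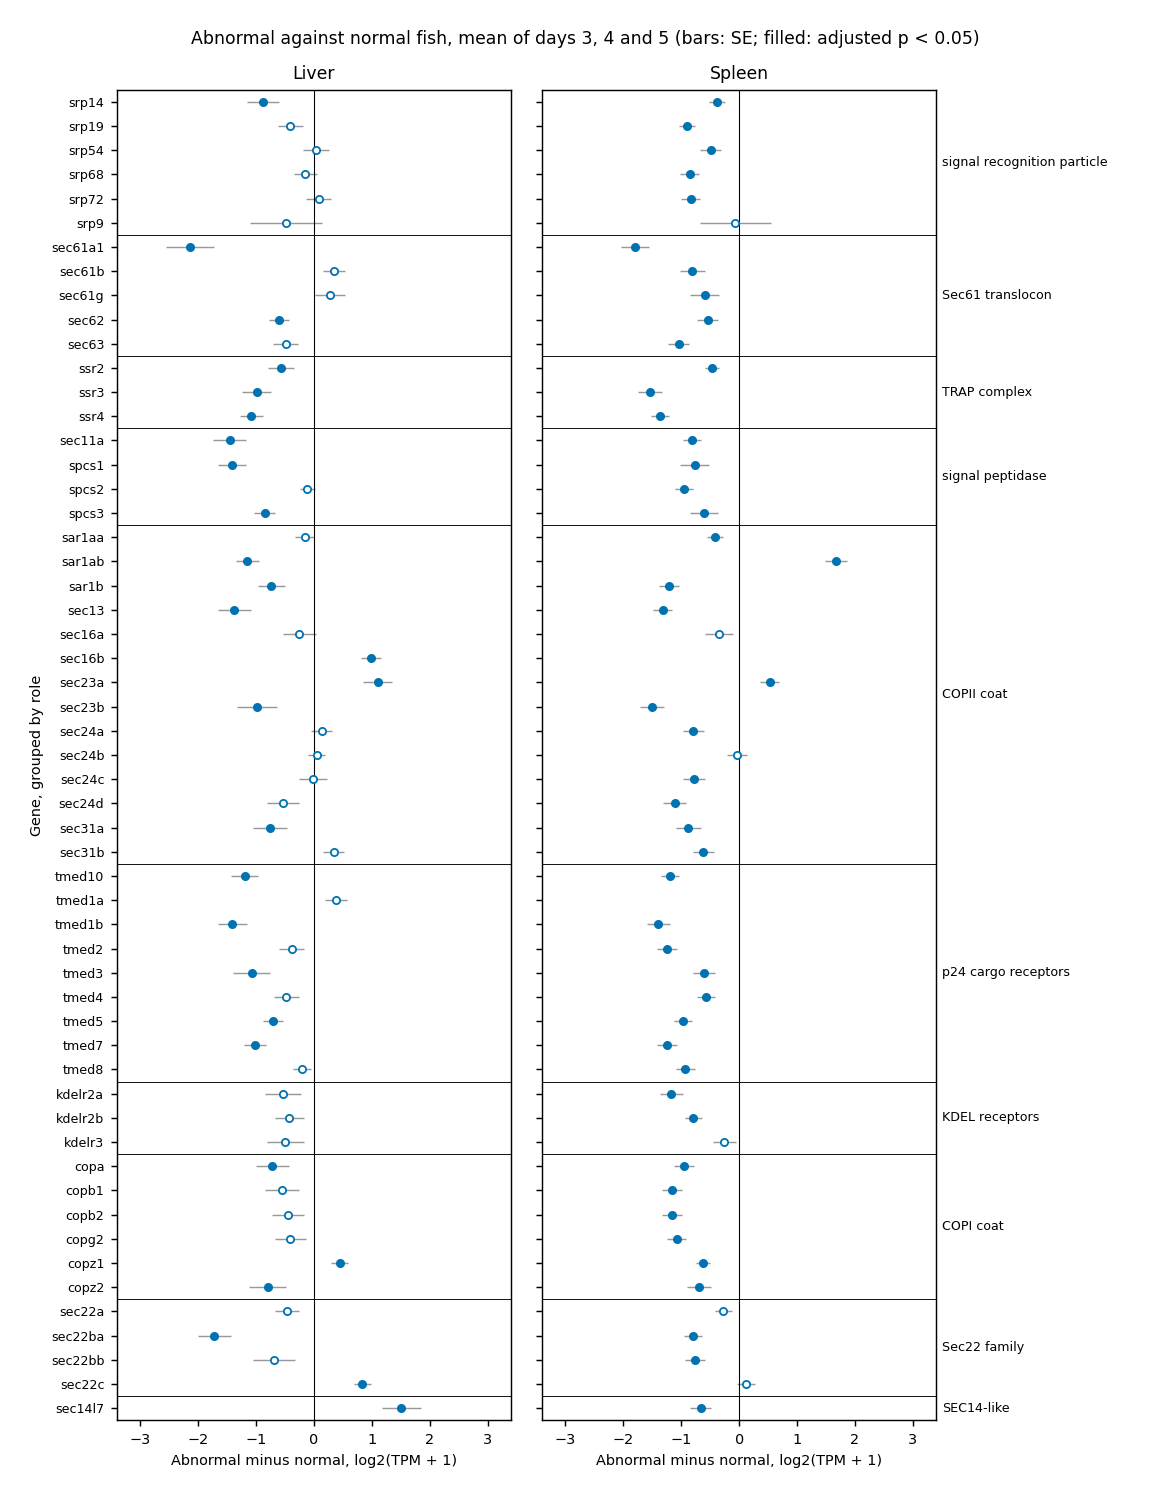
Difference between abnormal and normal fish as the mean of days 3 to 5, in log2(TPM + 1) with SE bars, for each gene by role in liver (55 genes) and spleen (53); filled points passed at adjusted p under 0.05. Spleen points lie left of 0 apart from sar1ab, sec23a and, not called, sec22c, before the rescaling that moves 10 of them past 0. In liver the called genes to the right are sec14l7, sec23a, sec16b, sec22c and copz1.

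The tissues differed in the change after 1 day. Tested as an interaction, liver minus spleen, the difference between 1 day and before transport was larger in liver for 26 of 55 genes and smaller for 3 (11% and 6.49% of all genes, 17.5% called; medians 1.31 and 0.10). Examples were spcs1 (3.12, SE 0.59, limma adjusted p = 0.000234), sec61a1 (3.07, SE 0.80, limma adjusted p = 0.00554), copz2 (2.80, SE 0.63, limma adjusted p = 0.00145) and kdelr2a (2.31, SE 0.62, limma adjusted p = 0.00721). For spcs1 the spleens had 84.3, 86.1, 68.9 and 65.4 TPM before and 95.6, 73.8, 9.11 and 19.2 after 1 day. Its value rests in part on spleen fish 3 and 4. The values of these examples without the libraries that stood apart are not given here. The smaller ones were sec14l7 (-2.41, SE 0.64, limma adjusted p = 0.00618), sec22c (-1.46, SE 0.35, limma adjusted p = 0.0026) and tmed1a (-1.07, SE 0.34, limma adjusted p = 0.0223). With tmed1a at 0.0225 TPM in spleen before transport, no fall could show there, and its call rests on the fall in liver. The number called was 19 without fish 3 in liver after 1 day, 19 without fish 3 and 4 in spleen, and 14 without those and fish 4 in liver before transport, of which 13 were larger in liver. For these fits the share of all genes called is not given here, so they do not show whether these genes still stood out. With only the compared groups in the fit 1 was called (1.46% of all genes), and rescaling gave 31 larger and 3 smaller (16.2% and 13.5% of all genes).

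At the end of transport the interaction called 3 of 55, tmed5 larger (1.19, SE 0.37, limma adjusted p = 0.0411) and sec16b (-1.69, SE 0.36, limma adjusted p = 0.00135) and tmed1a (-1.29, SE 0.34, limma adjusted p = 0.0125) smaller in liver (2.06% of all genes larger and 4.43% smaller, 6.48% called). In spleen before transport sec16b averaged 0.422 TPM and tmed1a 0.0225, so no fall could show there. The calls of sec16b and tmed1a therefore rest on their fall in liver and do not show that the tissues responded differently. For the difference between the labels the interaction called 14 larger and 2 smaller (47.4% and 6.74% of all genes, 54.2% called). Rescaling turned this to 3 larger and 20 smaller (28% and 21.2% of all genes), so the direction there follows the scaling. The largest was sar1ab (-2.82, SE 0.28, limma adjusted p = 2.84e-12), lower in abnormal than normal livers (log2 difference -1.15, SE 0.20, limma adjusted p = 2.75e-05) and higher in abnormal than normal spleens, and sec14l7 went the other way (2.17, SE 0.39, limma adjusted p = 5.21e-06; spleen -0.66, limma adjusted p = 0.00265).

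Sister genes of the COPII coat moved apart. Of the TPM of sec23a and sec23b together, sec23b held 13.4% to 19.4% in livers before transport, 6.0% to 21.0% at the end of transport and 43.9% to 72.6% after 1 day. On days 3 to 5 its share was 50.3% to 73.0% in normal livers and 14.5% to 46.2% in abnormal ones. In spleen it was 45.5% to 58.1% before transport, 65.0% to 80.7% in normal and 23.6% to 49.2% in abnormal fish. The ranges of the labels did not overlap in either tissue. A share within the pair does not change with the scaling of a library, and it was chosen after the values were seen, so no test was made.

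The Sar1 genes gave a second such pair in spleen. Of sar1ab and sar1b together, sar1ab held 5.28% to 9.22% before transport, 19.2% to 24.9% at the end of transport, 12.5% to 20.9% after 1 day, 2.86% to 10.4% in normal and 20.2% to 61.7% in abnormal fish. In liver it held 2.21% to 24.3% in normal and 1.41% to 5.92% in abnormal fish, which overlap. In spleen sar1b itself was lower in abnormal fish (from 13.2 to 43.9 TPM with a median of 30.1, against from 58.0 to 87.9 TPM with a median of 74.8 in normal fish; log2 difference -1.21, SE 0.17, limma adjusted p = 5.5e-07), without overlap. In the Sec22 family of liver, sec22ba held 52.7% to 89.5% of its sum with sec22c in normal and 4.53% to 45.3% in abnormal fish, from 10.8% to 31.2% before transport. These 2 are members of 1 family and not a sister pair. The other sec22b copy, sec22bb, is outside this sum and averaged 13.6 ± 7.08 TPM in normal and 8.11 ± 4.24 in abnormal livers.

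**Figure D5:**
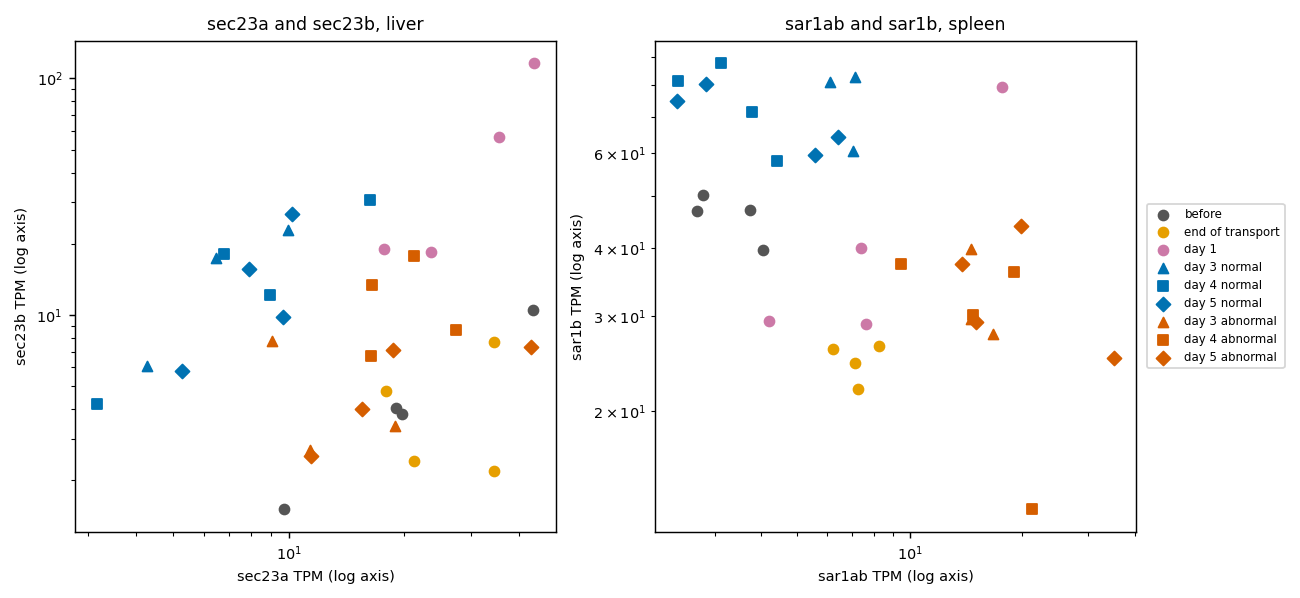
TPM of sec23a against sec23b in the 34 livers (left) and of sar1ab against sar1b in the 34 spleens (right), both axes logarithmic, coloured by condition with a marker shape for the day. For the Sec23 pair normal livers (blue) and abnormal ones (orange) overlap on each axis, and every normal liver has a higher ratio of sec23b to sec23a. For the Sar1 pair abnormal spleens lie to the lower right of normal ones.

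Genes of the same route that the naming rule leaves out were counted beside these. A list of 49 neighbouring genes (signal particle receptor, oligosaccharyltransferase, cargo receptors such as lman1 and surf4, tethers and SNAREs), chosen with earlier results of these data known, had 41 in the table. In liver after 1 day 16 were higher and none lower (median 0.93), where 9.99% of all genes were higher, and 29 and 0 with rescaling. In normal livers against before transport 21 were higher and none lower (0.69; 16.9% of all genes higher), and 32 and 0 with rescaling. Abnormal livers were lower than normal ones in 25 and higher in none (-0.70; 21.3% of all genes lower), and in 29 and 0 with rescaling. At the end of transport 0 were called in liver (12.2% of all genes called), and 1 was higher in abnormal livers against before (2.62% of all genes higher).

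In spleen 8 of these 41 were lower and none higher at the end of transport (-0.37; 6.98% of all genes lower). After 1 day 1 was higher and 4 lower (4.17% and 15.9% of all genes), and in normal fish 24 were higher and none lower (0.65; 21.5% of all genes higher). In abnormal spleens 4 were lower and none higher than before transport, where 25.2% of all genes were lower and 3.41% higher. Rescaling turned this count to 4 higher and 0 lower. Between the labels 38 were lower in abnormal fish and none higher (-0.88; 54.2% of all genes lower), and 21 and 3 with rescaling.

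ER folding genes, a list of 26 symbols chosen in the same way, were found as 27 genes. In liver 12 were higher and 0 lower after 1 day (median 1.20; 9.99% of all genes higher), and 16 higher and 1 lower in normal fish against before transport (0.97; 16.9% higher). In abnormal fish 0 were called against before (9.28% of all genes called), and 2 were higher and 16 lower against normal fish (-0.79; 21.3% of all genes lower). In spleen the end of transport had 1 higher and 4 lower (5.23% and 6.98% of all genes). After 1 day of recovery 0 were higher and 2 lower (4.17% and 15.9% of all genes), and 4 and 0 with rescaling. Normal fish had 9 higher and none lower (0.65; 21.5% higher). Abnormal spleens were lower than before transport in 13 and higher in none (-0.77; 25.2% of all genes lower), and in 9 and 2 with rescaling. They were lower than normal spleens in 23 and higher in none (-1.45; 54.2% of all genes lower), and in 18 and 3 with rescaling.

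The chaperone gene creld2 differed by -3.16 between the labels in liver and by -2.06 in spleen (limma adjusted p = 6.85e-08 and 5.44e-08), and hsp90b1 by -1.57 and -2.19 (0.000929 and 5.42e-08). The stress regulator gene xbp1 was listed at 0 in 5 libraries whose group mates had 30.7 TPM or more, and it was not called in any comparison within a tissue. None of the 22 spleens of days 3 to 5 was among those 5, and there xbp1 ran from 39.8 to 111.4 TPM in abnormal and from 115.03 to 198 TPM in normal fish, without overlap.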

How the data were processed

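RNA sequencing of liver and spleen was deposited as 1 table of TPM values for 68 libraries and 18666 genes. Per the labels' protocols, RNA was extracted with TRIzol, depleted of rRNA and made into strand-specific libraries. The submitters' processing notes name fastp 0.23.2 and Salmon 1.10.0, while for the genome build and for the annotation the answer is not given in the sources used here. The authors' TPM values sum to 995833.08 to 999253.8 a library and keep no sequencing depth, so depth is unknown and no counting interval can be given.

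Here, log2(TPM + 1) was fitted with limma 3.58.1 in R 4.3.3, with 1 mean per group, 9 groups per tissue and a trended prior. Genes had to reach 1 TPM in 3 libraries. Differences between tissues used 1 fit of all 18 groups. P-values were two-sided, adjusted by Benjamini-Hochberg over all genes tested, and called under 0.05. Means of days 3 to 5 weight each day equally. The 55 genes, their roles and the lists of neighbouring, ER folding and marker genes were chosen with earlier results of these data known. Values in every library were to be given, per comparison, for the 3 genes with the largest rise and the 3 with the largest fall among called genes whose group with more of it averaged 5 TPM or above. A set of named genes for each step of the pathway was described whatever its values. The shares of a gene in the sum with another and the exclusion of 2 spleens were chosen after the values were seen.

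Alternatives were pseudocounts of 0.1 and 0.5, rescaling by the median of ratios, omitting the filter or raising it to 5 TPM, a fit of only the compared groups, a replicate block and leaving out libraries. The fits were tested on simulated data. The 96 pairs of replicates differed in at least 17643 genes each, so no library was a copy of another. Gene symbols are those of the deposited table, all 55 of which matched a protein-coding gene of the RefSeq names for assembly ASM1485139v1. Figures were drawn with matplotlib 3.10.9.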

Additional observations from a re-analysis of the deposited data

Results flagged for a closer look

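Single libraries stood far from the rest of their group of 4 in 8 of 139 sets of values checked, where chance flags about 1 in 20. Before transport the liver of fish 4 had 251 TPM of sec14l7 (75.5 to 83.2 in the others), 21.7 of sec16b (6.57 to 7.41) and 45.0 of sec24a (8.38 to 11.9). In spleen after 1 day fish 4 had 17.7 TPM of sec14l7 (2.78 to 3.65 in the others) and 38.9 of sec31a (7.53 to 12.3). At the end of transport spleen fish 4 had 14.3 TPM of sec61a1 (9.54 to 10.2), before transport spleen fish 4 had the lowest sec61g with 415 (604 to 631), and on day 4 abnormal spleen fish 1 had the lowest srp14 with 15.4 (25.1 to 26.5).

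Liver and spleen differed, by the limma interaction, in the change of 3 genes at the end of transport, of 29 genes after 1 day and of 16 genes between the labels on days 3 to 5. Among them sec16b and tmed1a at the end of transport, and tmed1a after 1 day, were too low in spleen for a fall to show there.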

How the results depend on the processing

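Calls of members under the alternatives, as counts, were as follows. With median-of-ratios rescaling they were 5 (liver, end of transport, against 2), 7 (abnormal livers against before, against 3), 13, 20, 28 and 27 (spleen at the end of transport, after 1 day, after 1 day against the end of transport, and abnormal against normal fish, against 7, 11, 16 and 47) and 6 (tissue difference at the end of transport, against 3). With only the compared groups in the fit they were 1, 2 and 1 in liver (end of transport, 1 day against before, abnormal against before), 26, 0, 1 and 39 in spleen (end of transport, 1 day against before, 1 day against the end of transport, normal against before) and 1 for the tissue difference after 1 day. Without the 2 livers that stood apart they were 1, 14 and 1 in the same 3 liver comparisons and 18 for the tissue difference after 1 day. Without spleen fish 3 and 4 after 1 day, chosen after seeing the data, they were 2 and 8 in spleen (against before and against the end of transport) and 19 for the tissue difference, and 14 without all 4 libraries. Other pseudocounts and filters moved no count by over 1.5 times. The cause was not tested. Where no share of all genes is given for an alternative, its count does not show whether members were called more often than all genes.

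Rescaling put 10 spleen genes lower in abnormal fish slightly above 0, at 0.029 (copz1), 0.15 (srp54), 0.0844 (sec62), 0.0506 (spcs3), 0.066 (sec61g), 0.0666 (sar1aa), 0.20 (ssr2), 0.0635 (tmed4), 0.26 (srp14) and 0.0244 (tmed3). Of 227 calls of a gene in a comparison within a tissue, 188 held with rescaling, 158 with only the compared groups and 220 with the replicate block.

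Leaving out 1 library gave, in liver, 1 to 5 calls at the end of transport, 8 to 34 after 1 day (11 to 28 against the end of transport), 25 to 32 in normal and 0 to 5 in abnormal fish against before, 22 to 37 between the labels and 0 by day. In spleen it gave 3 to 5, 5 to 16 (13 to 24), 11 to 26, 1 to 14, 44 to 47 and 0. For the tissue differences it gave 2 to 3, 19 to 33 and 14 to 20, and 21 to 31 before transport. Depth is unknown, so genes at low TPM, such as sar1aa in both tissues, cannot be given a counting error.

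The labels do not tie same-numbered libraries. Deviations of liver and spleen of 1 number correlated over 0.1 in 23 of 34 pairs (mean r 0.151, lowest -0.344), in all pairs of 4 of the 9 conditions. Different numbers of a condition had a mean r of -0.0447, and for 23 of 34 livers the spleen of the same number had the highest r. Deviations from a group mean cancel out within a condition, so the mean r of different numbers is nearly fixed by that of same numbers. It is no separate baseline. Whether such a pair came from 1 fish is not settled, and the main fits did not pair samples by number. Same-numbered libraries of different groups within a tissue had a mean r of -0.01 in liver and 0.00946 in spleen, which does not bear on that question. The tissue differences treat liver and spleen as independent, and their replicate block gave same-numbered tissues of a condition a shared correlation, estimated as 0.0382. With the replicate block the counts were 2, 28, 20, 29, 3 and 27 in liver, 7, 10, 19, 28, 7 and 47 in spleen, and 3, 30 and 16 for the tissue differences, each within 1.5 times of the fit without it. The calls lost under the block were those of copg2, kdelr3 and tmed2 (liver, 1 day against the end of transport), sar1ab (liver, 1 day; spleen, end of transport), kdelr2a (abnormal spleens against before) and ssr3 (spleen, 1 day).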

Other observations

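Within abnormal spleens, taken as deviations from the day means, 44 of the 52 other genes tested had Pearson r over 0.5 with sec61a1, where 65.3% of all genes did (11 libraries). In normal spleens 33 of 52 did, where 19.5% of all genes did. The ER chaperone gene hspa5 had r of 0.99 with sec61a1 in normal and 0.96 in abnormal spleens. These are descriptions over libraries that share their scaling.

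The share of sec61a1 in the sum of sec61a1 and sec61g was 1.00% to 8.87% in livers before transport, 5.82% to 18.6% after 1 day, 2.85% to 17.3% in normal and 0.80% to 4.92% in abnormal livers. It was chosen after the values were seen, and no test was made.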
